A study of Mus musculus with 16 samples.

Results

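The array described here measured DNA copy number in ID8, a mouse ovarian tumour line. It was taken as the only array labelled ID8, 1 of 16 arrays in the series. Its labels give the strain as C57BI6, the sex as female and the tissue of origin as ovary. The study profiled syngeneic tumour lines, which can be grown in mice of the strain they came from, as models for work on immunotherapy. Each array compared DNA of a cultured line, labelled with the red dye Cy5, with a commercial mouse genomic DNA in the green dye Cy3, the same reference on all arrays. The lines were untreated, and DNA came from 1 culture of each. Besides ID8, 11 arrays carry the C57BI6 label, from the tumours MC38, LL2, B16 (4 arrays), Hepa1-6, PAN02, TRAMPC (2 arrays) and EL4. The other 4 arrays are the Balb/C lines CT26, 4T1 and Renca and the DBA/2 line P815.

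In comparative genomic hybridisation, DNA of a tumour and of a reference compete for the same probes, and the ratio of the dyes follows the ratio of copies. A gain or loss of a whole chromosome shifts all its probes together, whereas a homozygous deletion leaves a short run of probes with almost no tumour signal. Short inherited copy number differences between mouse strains also appear when a line is set against a reference of another origin, and lines of the same strain then show them alike. ID8 is a line of ovarian surface epithelial cells that became transformed during long culture, and it is widely used as an ovarian cancer model in mice with an intact immune system. No DNA marker of ovarian origin was available for these probes, so the tissue label was not checked on this array.

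The values are log2 ratios of line over reference, set to 0 at the median autosomal probe, so a level is relative to the rest of the ID8 genome and not an absolute copy number. In a pure population with a diploid background, 3 copies over 2 would give 0.58. The ID8 array used 233212 probes on the mouse build mm8, of which 220668 were autosomal, at a median spacing of 7827 bp. The line signal was well above background for 99.8% of probe spots, and the noise between neighbouring probes was 0.36 in log2. ID8 had 1 array, so its profile has no replicate and no test of its own. The number of arrays limits the precision, and the errors given are the SE over probes, which reflect scatter among neighbouring probes and say nothing of how cultures differ.

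Gains outweighed losses in ID8. The profile divided into 109 autosomal segments. Segments with a mean at or above 0.3, called gains, held 17.6% of the autosomal probes, and those at or below -0.3, called losses, held 3.43%. Among the 16 arrays ID8 ranked 4 by its gained share, 14 by its lost share and 9 by their sum of 21.0%. Most of the gained length lay in 16 segments of 5 Mb or more, which covered 365.5 Mb, and most of the lost length in 3 such segments, which covered 91.6 Mb. Shorter segments, called focal, numbered 14 gains over 10.4 Mb and 9 losses over 7.85 Mb.

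Chromosomes 15 and 19 were gained along their whole length, and no other autosome was called over 90% or more of its probes. Other settings added some: chromosome 5 (90.6%) with centring on the most frequent value (the mode), chromosome 6 with the penalty factor for adding a segment raised from 6 to 12, and gains of 5 and 6 and losses of 14 and 18 at a threshold of 0.2. The median of chromosome 15 was 0.64 ± 0.0051 (SE, 9168 probes), a 1.56-fold ratio. The median of chromosome 19 was 0.70 ± 0.0065 (SE, 6291 probes), a 1.63-fold ratio. All 101 bins of 1 Mb on chromosome 15 and all 59 on chromosome 19 had means above 0.3 in ID8. Both medians were the highest of the 16 arrays, the next being 0.435 for chromosome 15 and 0.444 for chromosome 19. With normexp, another background correction, gains covered 14.9% of chromosome 15 and 17.7% of chromosome 19, so neither was called along its whole length.

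Neither chromosome was level along its length. Chromosome 15 fell into 5 segments. The highest was the first, chr15:3091692-47767230, at 0.72 ± 0.0064 (SE, 3418 probes). It was followed by chr15:47783948-72326340 at 0.56 ± 0.0086 (SE, 1801 probes), chr15:72334307-89176326 at 0.70, chr15:89179432-98122959 at 0.53 and chr15:98129824-103482674 at 0.69. High and low stretches thus alternated, all above 0.5. The steps are values as measured, and their spread was narrower once the other C57BI6 lines were subtracted, as given below. On chromosome 19 the segment nearest the centromere, chr19:3147156-11008736, stood at 0.83 ± 0.012 (SE, 1067 probes), the middle segment chr19:11012786-36460238 at 0.66 and the last, chr19:36467113-61316020, at 0.76.

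**Figure D1:**
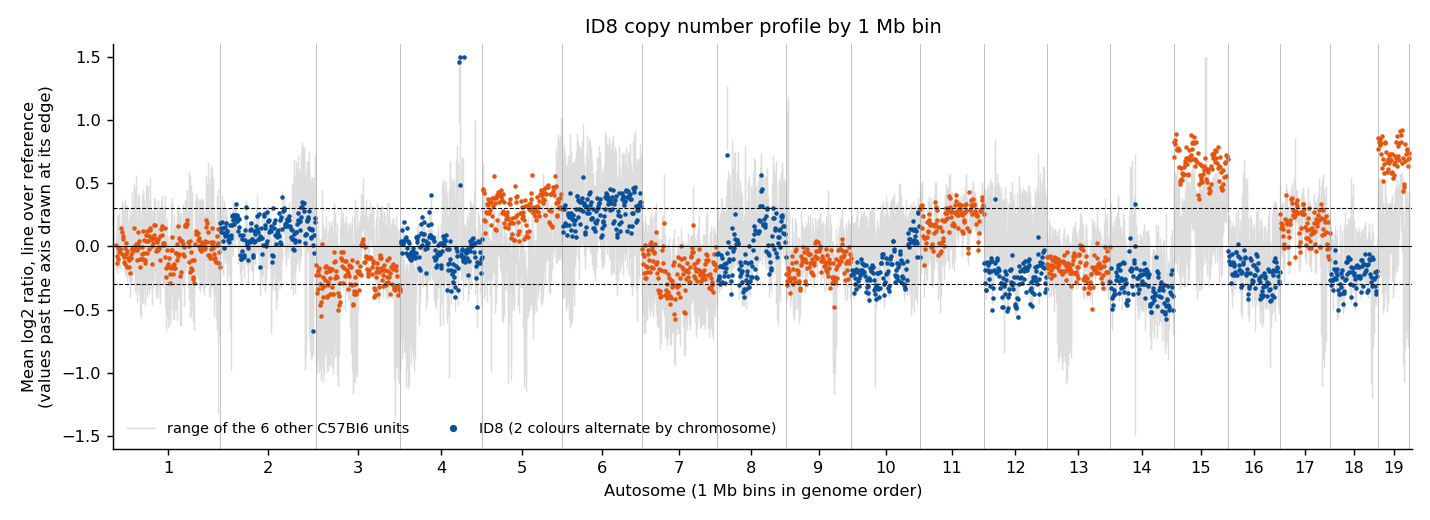
Copy number of ID8 along the 19 autosomes. Each point is the mean log2 ratio of a 1 Mb bin in ID8, grey lines span the 6 other C57BI6 units (tumour families, defined in the text), dashed lines mark 0.3 and -0.3, and values past the axis are drawn at its edge. Chromosomes 15 and 19 lie above 0.3 throughout, and chromosome 5 lies near 0.30.

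Gains and losses of 5 Mb or more that covered part of a chromosome were all of low amplitude. Chromosome 5 had a median of 0.30 ± 0.0043 (SE, 13803 probes), and 73.6% of its probes were called gained. The called stretches were chr5:3003879-41367993 at 0.35 ± 0.0067 (SE, 3582 probes) and chr5:90527657-152002764 at 0.37 ± 0.0048 (SE, 6571 probes). The stretches between them stood at 0.22 and 0.25. They lay just under the threshold, and the level did not return to 0 between the called stretches. Chromosome 6, with a median of 0.27, was gained over 60.1% of its probes, from chr6:28395371-40983869 at 0.33 and chr6:80544071-149520662 at 0.34. Its remaining long segments were at 0.21 and 0.27. The extent of both calls depended on the settings: with mode centring chromosome 5 was gained over 90.6% and chromosome 6 over 85.5%, and with a penalty factor of 12 they were gained over 34.2% and 100%.

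The other long gains barely passed the threshold. They were chr2:151708286-158735985 at 0.31, chr11:116586266-121796730 at 0.33, chr17:22643372-30169753 at 0.31 and chr17:30656351-36518115 at 0.31. Losses of 5 Mb or more lay on chromosomes 12 and 14. The segment chr12:34510397-69747153 stood at -0.32 ± 0.0075 (SE, 2666 probes), and the call covered 29.5% of the chromosome. On chromosome 14, chr14:3892581-15020823 stood at -0.38 ± 0.013 (SE, 765 probes) and chr14:78748267-123948262 at -0.38 ± 0.0071 (SE, 3361 probes). Together they held 39.0% of its probes. Just outside the threshold were 68.2 Mb of chromosome 11 at 0.27, 39.0 Mb of chromosome 6 at 0.27 and 20.1 Mb of chromosome 7 at -0.28.

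The remaining chromosome medians spread on both sides of 0. Chromosome 2 stood at 0.12, chromosome 11 at 0.22 and chromosome 17 at 0.15. Chromosomes 1, 4 and 8 lay near 0, at -0.02, -0.05 and -0.01. Those of chromosomes 9 and 10 were -0.15 and -0.16, of 7 and 13 -0.20 and -0.19, and of 16, 3, 18, 12 and 14 -0.22, -0.23, -0.24, -0.26 and -0.31. The level of 0 is itself a choice: the most frequent value of the ID8 profile lay at -0.07, and centring there lifts each level by that amount. Under that centring the gained share was 24.1% and the lost share 1.93%.

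To set what other C57BI6 lines also showed apart from what ID8 showed, arrays of the same tumour were averaged. The 11 other C57BI6 arrays then gave 6 units: MC38, LL2, EL4, B16 (mean of 4 arrays), TRAMPC (mean of 2) and the pair Hepa1-6 and PAN02 (mean of 2), whose profiles were nearly the same. ID8 was the highest of these 7 units on chromosomes 2, 5, 15 and 19 and on the X, and the lowest on chromosomes 3 and 12. On chromosome 19 the other units ran from -0.09 (B16) through a median of 0.10 to 0.37 (TRAMPC), so ID8 at 0.70 lay outside their range. On chromosome 15 they ran from 0.16 (B16) through 0.23 to 0.39 (TRAMPC), all above 0 and all below the 0.64 of ID8. On chromosome 5 they ran from -0.19 (LL2) through -0.05 to 0.10 (EL4), again below ID8. On chromosome 12 they ran from -0.20 (MC38) through 0.11 to 0.38 (Hepa1-6 and PAN02), above the -0.26 of ID8. On chromosome 3 they ran from -0.15 (EL4) through -0.05 to 0.13, above the -0.23 of ID8. The gap on chromosome 2 was small, 0.12 in ID8 against 0.12 in LL2 (0.122 and 0.118).

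**Figure D2:**
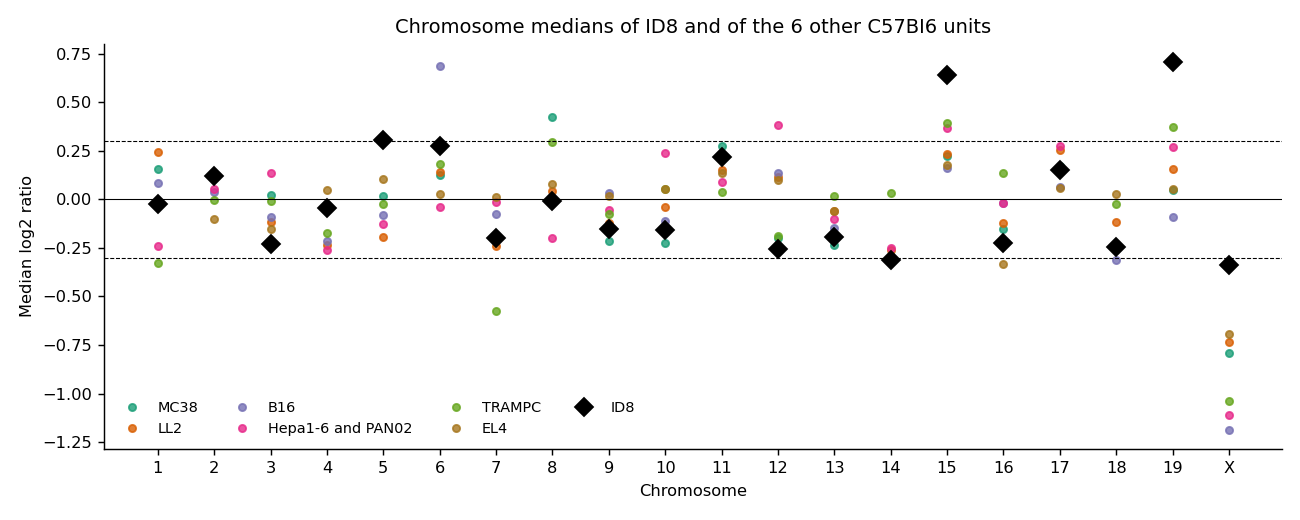
Median log2 ratio of each chromosome (y axis) in ID8 (black diamonds) and in the 6 other C57BI6 units (coloured points), with dashed lines at 0.3 and -0.3. ID8 lies above every other unit on chromosomes 5, 15, 19 and X and below them on 3 and 12.

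The long segments differed in how far other tumours shared them. A segment was classed as shared when at least 4 of the 6 units were past 0.3 in the same direction over the same probes, and as found in ID8 alone when none was. Both gains on chromosome 5 and the loss on chromosome 12 were of ID8 alone among the C57BI6 units, 2 gains and 1 loss in all. The Balb/C and DBA/2 arrays do not enter this class. Their medians ran from -0.35 (Renca) to 0.24 (CT26) on chromosome 5 and from -0.22 (CT26) to 0.14 (Renca) on chromosome 12. The units ran from -0.21 to 0.13 over the first chromosome 5 segment and from -0.29 to 0.35 over the chromosome 12 segment. In MC38 and TRAMPC the latter stood at -0.29 and -0.25, near the threshold. With mode centring ID8 itself stood at -0.26 there and was no longer called. Shared were 5 gains, namely both on chromosome 17, the first of chromosome 19 and the segments of chromosome 15 from 72334307 and from 98129824. The distal loss on chromosome 14 was shared too, with units from -0.59 (MC38) to -0.07 (TRAMPC). The other 9 gains and the proximal chromosome 14 loss were past 0.3 in 1 to 3 other units.

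Each 1 Mb autosomal bin of ID8 was then tested against the 6 units, with a moderated linear model (limma) across all 2396 bins and Benjamini-Hochberg adjustment. The lone ID8 array was assumed to vary like the other units, which are different tumours with changes of their own. No bin was called higher (0%) or lower (0%) at an adjusted p under 0.05 in limma, and the lowest adjusted p was 0.9996. At an unadjusted p under 0.05, 98 bins were higher in ID8 (4.09%) and 1 was lower (0.0417%). Of the 98, 56 lay among the 59 bins of chromosome 19, 27 among the 148 of chromosome 5 and 15 among the 101 of chromosome 15. The lower bin lay on chromosome 12. Together these bins are no more than a cutoff of 0.05 alone would give on average. Bins of the same chromosome shift together in 1 array, so they do not count as separate changes.

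The mean difference between ID8 and the other units over bins was 0.59 on chromosome 19, from 0.45 to 0.82. It was 0.39 on chromosome 15, 0.37 on chromosome 5 and -0.30 on chromosome 12 (-0.305). The bin of lowest p was chr19:25000001-26000000, at 0.73 in ID8 against 0.14 ± 0.14 (SD, n = 6), a difference of 0.59 ± 0.19 (SE) with an adjusted p of 0.9996 in limma. No difference passed the test once all bins were counted. With 1 array against 6 units, an exact permutation test of a chromosome median cannot give a one-sided p below 0.143, so none is given. ID8 was scanned with 5 other arrays, of which Hepa1-6 and B16F10 NCI are C57BI6. A fit against them alone has 1 residual degree of freedom, so little is read from it. Against those 2 alone, 0 bins passed in limma (lowest adjusted p 0.55) and 191 had an unadjusted p under 0.05. Without LL2 the unadjusted count was 56, and the adjusted count again 0.

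A second view subtracted from each ID8 probe the median of the 6 units, a comparison chosen after the data were seen. It removes what most C57BI6 lines share, whether inherited, recurrent in tumours or set by the reference or the probe, and those sources cannot be told apart in it. The noise between neighbouring probes dropped from 0.36 to 0.15. The gained share was then 12.04% and the lost share 2.50%. Chromosome 19 remained called gained over 100% of its probes, at a median difference of 0.53, and chromosome 15 over 96.4%, at 0.36. Long segments of chromosome 15 then ran from 0.31 to 0.41, against 0.53 to 0.72 as measured. Those of chromosome 19 ran from 0.53 to 0.67, against 0.66 to 0.83 as measured. The steps along chromosome 15 are thus not all particular to ID8. Chromosome 5 was gained over 72.8%, at 0.35, and chromosome 12 lost over 53.2%, at -0.30. The chromosome 5 difference was highest in chr5:79177458-84102970, at 0.59 ± 0.011 (SE, 253 probes), where the other units ran from -1.02 to -0.12. That stretch lies between the long called gains of ID8 and was not itself called as measured, so it is not the peak of the ID8 level.

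Several partial changes did not appear in that view. Chromosome 17 became a single segment at 0, and chromosome 14 had no called segment, with long segments between -0.15 and -0.01. Chromosome 6 was called over 3.62% of its probes, with a median of 0.14, against 60.1% as measured. On chromosome 4 a stretch of 9.78 Mb, chr4:8791112-18575726, passed as a gain of 0.35 although ID8 itself stood at 0.05 there. The other units lay between -0.92 (EL4) and -0.21 (TRAMPC) over it.

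**Figure D3:**
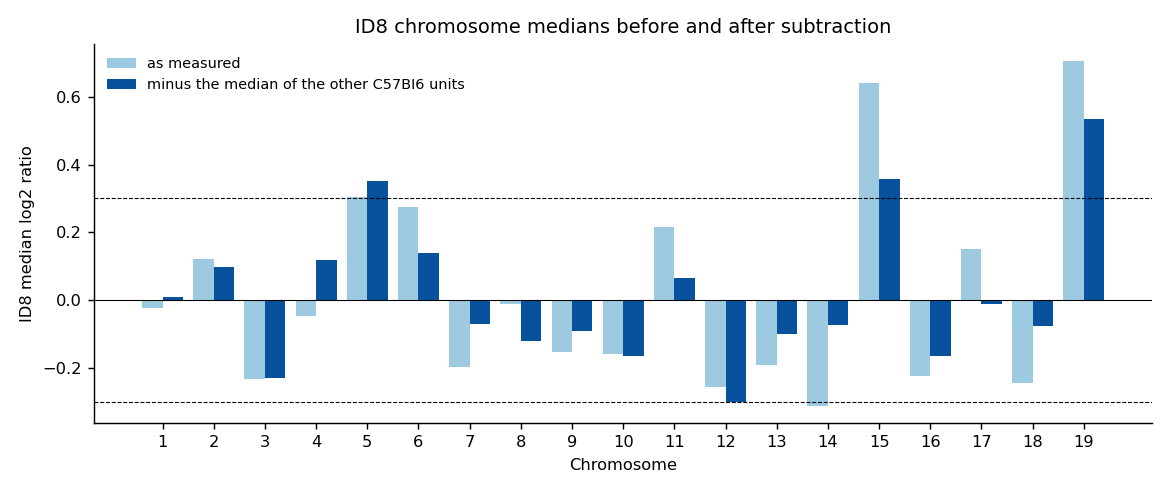
Median log2 ratio of each ID8 autosome as measured (light bars) and after subtraction, probe by probe, of the median of the 6 other C57BI6 units (dark bars), with dashed lines at 0.3 and -0.3. The bars of chromosomes 5 and 19 stay above 0.3 and that of chromosome 15 drops from 0.64 to 0.36, while that of chromosome 17 drops from 0.15 to -0.01.

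The X chromosome of ID8 was the highest of the 16 arrays relative to the autosomes. Its median was -0.34 ± 0.0043 (SE, 11951 probes), where the other C57BI6 units ran from -1.19 (B16) through -0.91 to -0.69 (EL4). Segments of the X stood at -0.30, -0.43 and -0.28. The Y probes of ID8 had a median of -0.68, and 40.3% of them were well above background in the line. TRAMPC, whose arrays are labelled male, stood at 3.14 on the Y, and the other units ran from -0.999 to -0.55. The Y level of ID8 thus lay among those of the lines labelled female.

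The deepest focal loss of ID8 was chr4:88706575-88873498, 167 kb on mm8 covered by 13 probes. Their mean was -4.91 ± 0.26 (SE), and each lay between -3.27 and -6.13. The last pair of them lay beyond a stretch with no probe, from 88776278 to 88864714, where the loss was not measured. At 11 of the 13 the ID8 signal did not stand well above background, so the ratio is a bound, at least 14.4-fold lower than the reference. With normexp the mean was -0.28, past no threshold, and the cause was not tested. Both edges were sharp: the last kept probe before the loss stood at -0.04 (chr4:88680923-88680982) and the first after it at -0.06 (chr4:88887041-88887100). The 16 flanking probes of ID8 ran from -0.33 to 0.81.

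This interval was low in several other tumours, but with other limits. All 4 B16 arrays were low from the same first probe and had 11 of the 13 probes below -1, with the last pair of probes back at 0.61 and 0.73. MC38 had 5 probes below -1, from 88738012 to 88759685, and stood at -0.56 to 1.15 at the others. LL2 was low from 88738012, over 10 probes, and stayed low past the end of the ID8 loss, at -5.91 at the first probe after it. EL4 had 1 probe at -6.35 and a mean of -0.19. Hepa1-6, PAN02, TRAMPC1 and TRAMPC2 had means between -0.10 and 0.07. Among the other strains, P815 had 13 of 13 probes below -1, as ID8 did, but its flanking probes were as low (mean -4.79). CT26 had 8 such probes, with flanking probes at a mean of -0.63, and 4T1 had 6, with flanking probes at 0.04. Renca was no lower in the interval (mean -1.06) than beside it (-1.13). By the same class rule the loss was partly shared, with 3 of the 6 units past -0.3.

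**Figure D4:**
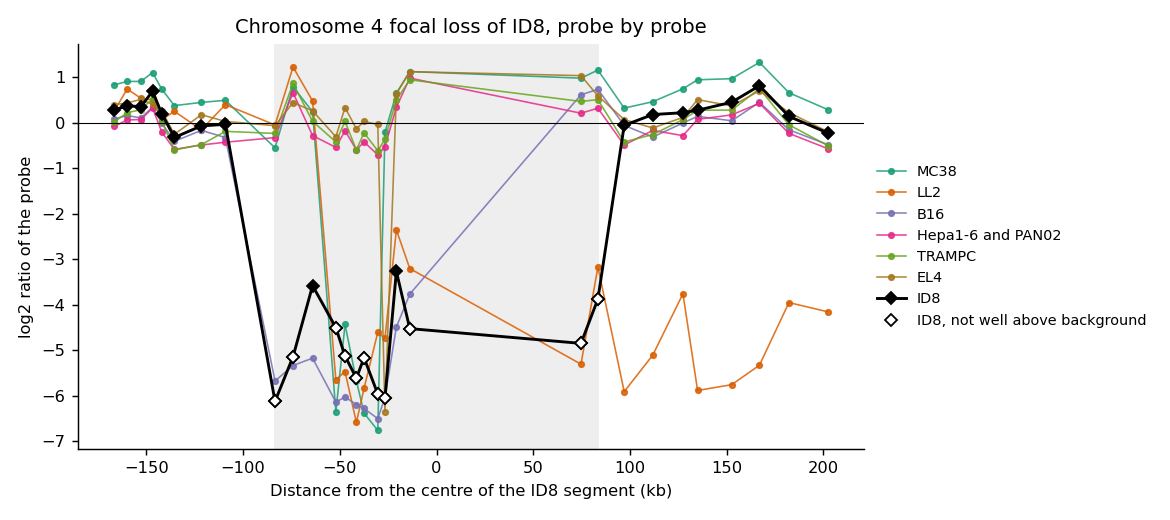
Log2 ratio of each probe (y axis) against its distance in kb from the centre of the chromosome 4 focal loss of ID8 (x axis, shaded), in ID8 (black) and the 6 other C57BI6 units. Open diamonds are ID8 probes not well above background. ID8 is low at all 13 probes and near 0 on both sides, B16 shares the left edge, and LL2 stays low to the right.

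Probes with no measurable line signal were rare elsewhere in ID8. Of 46 probes not well above background in the line, 20 were well above it in the reference. Runs of 2 or more such neighbours numbered 3, and all 3 lay in this chromosome 4 loss. Cdkn2a and Cdkn2b, neighbouring genes for inhibitors of cyclin-dependent kinases that are often deleted in tumours, are on chromosome 4 in the gene table used here. The table is on another build and the files name no genes, so whether they lie in the loss was not determined.

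**Figure D5:**
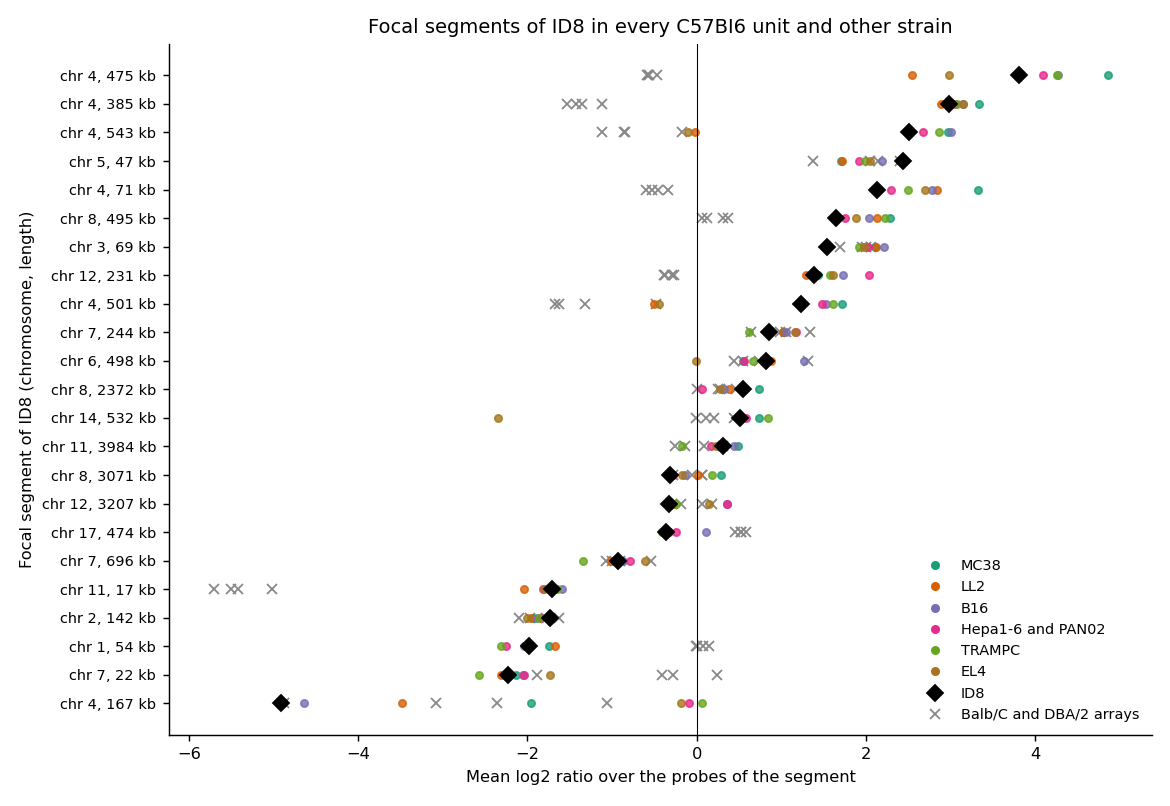
Mean log2 ratio (x axis) over the probes of each autosomal focal segment called in ID8 (y axis, chromosome and length), in ID8 (diamonds), the 6 other C57BI6 units (coloured points) and the Balb/C and DBA/2 arrays (crosses). In most rows ID8 lies among the C57BI6 units, and in rows such as the highest, at 3.81 in ID8, the crosses stand apart.

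Most other focal segments of ID8 were shared with the other C57BI6 lines. Of the 23 focal segments, 13 gains and 6 losses were shared, 1 gain and 2 losses were partly shared and 1 loss was of ID8 alone. Of the 19 shared segments, 13 were past 0.3 in all 6 units. In 8 of the 19 none of the Balb/C and DBA/2 arrays was past 0.3, in 7 all 4 were, and in the other 4 some were.

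The segments that followed the C57BI6 label lay mostly on chromosome 4. The highest was chr4:111629720-112104237 at 3.81 ± 0.20 (SE, 37 probes), where the other units ran from 2.54 (LL2) to 4.85 (MC38) and the Balb/C and DBA/2 arrays from -0.59 to -0.47. At 30 of its 37 probes the reference was not well above background, so the mean fold over all 37 is a bound, at least 6.55. Without those 30 probes ID8 stood at 1.92. Its neighbour chr4:111551341-111622381 stood at 2.13 in ID8 (1.65 without 2 of 10 probes dim in the reference), in a unit range of 2.30 to 3.32, just above ID8. The segment chr4:121473470-121858499 stood at 2.98 (2.53 without 5 of 13 probes dim in the reference), with units from 2.88 to 3.33 and the other strains from -1.54 to -1.13. At 6 of the 19 probes of chr4:112322107-112864840 the reference was not well above background, so the mean fold over all 19 is a bound, at least 3.97. ID8 stood at 2.51 there (1.63 without those probes), near MC38, B16, TRAMPC and Hepa1-6 with PAN02 (2.67 to 2.999), while LL2 and EL4 stood at -0.02 and -0.11. Within the strain label, ID8 thus sided with 4 units against 2 at that segment. The segment chr1:173351486-173405431 showed the same division among losses, at -1.99 ± 0.22 (SE, 10 probes) in ID8, from -2.31 to -1.67 in the units and from -0.01 to 0.15 in the other strains. At chr17:30176354-30650272 ID8 stood at -0.37, 5 units between -0.41 and -0.24, B16 at 0.11 and the other strains between 0.45 and 0.58.

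A further group was present in every array. The losses chr2:77680396-77822062 at -1.73 and chr7:67535802-68232063 at -0.93 and the gain chr5:62046391-62093143 at 2.44 in ID8 were past 0.3 in all 16 arrays. The loss chr11:116564047-116580851 at -1.71 in ID8 was deeper in Balb/C and DBA/2 arrays, at -5.71 to -5.02. Intermediate were the gain chr8:22521623-23016260, at 1.65 in ID8 and 1.75 to 2.28 in the units, where the other strains ran from 0.06 to 0.37, and the loss chr7:37887916-37909600, at -2.23. In the latter, P815 stood at -1.89 beside the C57BI6 units, whereas CT26 stood at 0.23.

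The focal loss of ID8 alone was chr8:29172796-32243561, 3.07 Mb at -0.32 ± 0.025 (SE, 219 probes). The other units stood at 0.28 (MC38), 0.18 (TRAMPC), 0.01 (LL2), -0.14 (B16), -0.18 (EL4) and -0.28 (Hepa1-6 and PAN02), so its class rests on a difference of 0.04 from the last. With mode centring it stood at -0.25 and was no longer called. The partly shared segments besides the chromosome 4 loss were the gain chr11:3026911-7010811 at 0.32, past 0.3 in 2 units, and the loss chr12:117250919-120458172 at -0.32, past -0.3 in MC38.

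The subtracted profile called 7 focal gains and 5 focal losses, among them a pair of short segments that had no call of their own as measured. They are named after their values were seen. At chr11:34201779-34229082, 5 probes stood at 0.70 in ID8, while the other units ran from -0.19 to 0.02 and the other strains from -0.44 to 0.11. At chr12:83819164-83939726, 19 probes stood at -0.93 in ID8, a 1.90-fold lower level than the reference, and between -0.45 (LL2) and 0.33 (Hepa1-6 and PAN02) in the units.

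Genes could be assigned only by chromosome, so the values that follow are chromosome levels and not levels of the genes. Chromosome 15 holds 776 and chromosome 19 holds 705 protein-coding genes, together 7.17% of the 20661 autosomal genes of the table. From 7 gene lists with 180 genes, those on these chromosomes were named. The oncogene list had 2 of 43 there, Myc, the growth-promoting transcription factor, and Ptk2, the focal adhesion kinase, both on chromosome 15. The tumour suppressor list had 5 of 38, among them Men1 (menin) and Sufu, an inhibitor of hedgehog signalling, on chromosome 19, and Kmt2d, a histone methyltransferase, and Csmd3 on chromosome 15. These shares, 4.65% and 13.2%, lie on either side of the 7.17% of all genes and rest on few genes, so nothing is read from them.

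Of immune genes, 3 of 15 on the checkpoint list (20%) lay on chromosome 19. Chromosomes 15 and 19 together hold 7.17% of all autosomal genes. The checkpoint list includes enzymes as well as ligands. Its 3 genes there were Cd274 and Pdcd1lg2, which encode the PD-1 ligands PD-L1 and PD-L2, and Entpd1, which encodes the ectonucleotidase CD39. The interferon list had 4 of 22 (18.2%), the kinase gene Jak2 and the interferon-induced Ifit1, Ifit2 and Ifit3, all on chromosome 19. Both shares rest on few genes of the same chromosome, so nothing is read from them. Of 19 antigen presentation genes and 25 homologous recombination genes, 0 (0%) lay on either. Of 20 markers of ovarian surface epithelium and Mullerian tissue, 3 did, the epithelial keratins Krt7, Krt8 and Krt18 on chromosome 15. The median chromosome level was 0.15 over the antigen presentation genes, 0.06 over the ovarian markers and -0.15 over the checkpoint list. It was -0.10 over the interferon, -0.05 over the oncogene, -0.03 over the tumour suppressor and -0.02 over the homologous recombination genes. Over all autosomal genes it was -0.02. The 0.15 is the level of chromosome 17 itself, where the other C57BI6 units had a median of 0.16. Brca2, central to repair by homologous recombination, lies on chromosome 5 (0.30), and Rb1, the retinoblastoma gene, on chromosome 14 (-0.31). Both were named after these levels were seen, and other genes of their lists lie on chromosomes on either side of 0. On chromosome 14 the other C57BI6 units had a median of -0.28, so its level is not particular to ID8.

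Small RNA genes show how the profile can divide copies of a sequence. Chromosomes 15 and 19 hold 35 and 37 of the 919 autosomal miRNA hairpin genes in RefSeq (GRCm38.p6). The miR-194 and miR-192 families are encoded in paired clusters, on chromosome 19 (Mir194-2 and Mir192) and on chromosome 1 (Mir194-1 and Mir215). In ID8 these chromosomes stood at 0.70 and -0.02. The mature sequences are printed because they are identical or share a seed across the clusters, with the seed, bases 2 to 8, in capitals. They were chosen after the chromosome levels were known, and the array measured neither the hairpins nor their expression.
miR-194-5p, chromosomes 1 and 19: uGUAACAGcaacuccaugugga
miR-192-5p, chromosome 19: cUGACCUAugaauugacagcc
miR-215-5p, chromosome 1: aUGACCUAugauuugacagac

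Across the 2396 bins, ID8 correlated with the other arrays between 0.15 (Renca) and 0.56 (TRAMPC2), as a description. The arrays share the reference and the probes. After subtraction of the median of the units the range was -0.36 (Renca) to 0.25 (TRAMPC1). All levels were smaller with another background correction, normexp, under which the median of chromosome 15 was 0.20 and that of chromosome 19 0.22. At the unchanged threshold the gained share was then 1.24%, and 7 of the 44 called segments remained past 0.3. All 44 kept their direction except chr4:112885206-113386081, at 1.23 as measured and at -0.0070 with normexp.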

How the data were processed

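DNA of 16 lines was measured on 2-colour arrays, with 1 array per line. The authors made the spot intensity values and log10 ratios with Agilent Feature Extraction (tool from the submitters' processing notes, version 10.7.3.1 per the file headers). Background subtraction and linear dye scaling without lowess preceded the processed intensity values, per the file headers. Flags for outliers and for signal above background are the deposited 0 or 1 marks. The deposited log2 value table matched the deposited log10 ratios, converted to log2, to within 5.06e-05 on every array. The processed red over green ratio gave those log10 ratios, within a small tolerance, at 99.95% of ID8 spots. Together these comparisons settled the scale and direction of the value table and showed no centring. The ID8 median of the value table was -0.04. Probe positions were on mm8, per the file headers.

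Values were log2 of processed red over green, with control and outlier spots (188 in ID8) left out, repeat probes averaged and the autosomal median set to 0. Segments came from exact change point detection on squared error (penalty 6 × squared noise × natural log of the number of autosomal probes), with at least 5 probes per segment and probes limited to 3 noise SDs from the running median of 5. For probes not well above background, the higher of its value and the lowest signal well above background gave the "at least" fold. Bins of 1 Mb held at least 5 probes. The tools were Python 3.11.15, numpy 2.4.6, pandas 2.3.3, R 4.3.3 and limma 3.58.1, tested on simulated data. Normexp used median spot and background signals with an offset of 50, since no mean signal was in the files used.

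The members and gene lists were chosen with earlier results of these data known. Named were every autosome and the X, every called segment of 5 Mb or more, the 6 focal segments of largest size per class and direction, and list genes on chromosomes called over 90% or more of their probes. The other items were named after their values were seen. Runs of called bins, also due to be named, did not occur. All 180 list genes matched the gene table (GRCm38), of which no position was used, and 1 gene that the naming rule selects is not reported here. Arrays of 1 tumour are not independent, so they were averaged. Hepa1-6 and PAN02 were averaged for their nearly equal profiles. The strain and sex of the reference are not given in the sources used here.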

Additional observations from a re-analysis of the deposited data

Results flagged for a closer look

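Of 45 values compared over the 7 C57BI6 units, 5 had a highest or lowest unit whose gap to its nearest neighbour was large for the range (Dixon's test at 95%). Chance flags about 1 in 20. ID8 was the outlying unit in 1 of them, the segment of the subtracted profile on chromosome 11 from 34201779, at 0.697 in ID8 against a nearest unit of 0.02. That segment was found from the difference between ID8 and the same units, so its flag restates how it was chosen and the chance rate does not apply to it. In the other 4 another unit stood apart. TRAMPC was lowest on chromosome 7, at -0.575 where ID8 stood at -0.20, and highest on chromosome 14, at 0.0329 against -0.31 in ID8. EL4 was lowest at chr14:52616371-53148803, at -2.35, where ID8 stood at 0.51. B16 was highest at chr17:30176354-30650272, at 0.107 against -0.37 in ID8.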

How the results depend on the processing

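The gained share of 17.6% was 24.1% with mode centring, 1.24% with normexp, 26.9% at a threshold of 0.2, 7.31% at 0.5, 15.8% with a penalty factor of 12, 17.2% with at least 10 probes a segment and 12.04% after subtracting the other C57BI6 units. The lost share of 3.43% was 1.93% with mode centring, 0.0195% with normexp, 3.27% without probes dim in the reference, 25.4% and 0.0567% at those thresholds, 1.58% with the penalty factor of 12 and 2.50% after subtraction. Focal gains numbered 59 with normexp, 8 without probes dim in the reference, 5 with a penalty factor of 12 and 7 after subtraction, against 14. Focal losses numbered 4 with a penalty factor of 12 and 5 after subtraction, against 9. The median of chromosome 15 was 0.71 with mode centring, 0.20 with normexp and 0.36 after subtraction, and that of chromosome 19 was 0.77, 0.22 and 0.53. The median of the X reversed from -0.34 to 0.61 after subtraction, since the other units lie lower on it. The segment on chromosome 4 from 112885206 went from 1.23 to -0.0070 with normexp. The chromosome 4 loss went from -4.91 to -0.28, no longer past the unchanged threshold, and the cause was not tested. Of 44 called segments, 44 kept their call with the deposited value table, without probes dim in the reference and with outlier spots kept, 39 with mode centring and 7 with normexp. Those without a call under mode centring were the loss of ID8 alone on chromosome 8, the chromosome 12 losses from 34510397 and 117250919, the chromosome 17 loss (-0.299) and the first X segment. With a penalty factor of 12 no loss was called on chromosomes 8 and 12. With sharing set by 0.5 of the ID8 value, 20 focal segments were shared, against 19. In limma 0 bins passed in all alternatives, the leave-one-out fits included (0 to 0). Bins at an unadjusted p under 0.05 numbered 99, with normexp 1, within the scan batch 191, with mode centring 144, over 12 arrays with the scan batch as a term and the family as a random block 82, and 56 to 143 leaving out each unit in turn. No paired analysis was possible because each line had 1 array and the labels carry no shared replicate numbers. Signal over background limits only the 46 ID8 probes dim in the line and the segments whose reference probes are dim.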
